A study of Mus musculus with 8 samples.

Results

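Intercalated cells are the acid-base cells of the kidney's connecting tubule and collecting duct, and the results below follow 10 genes of their transport machinery in mouse kidney cortex. The genes were taken by symbol from the deposited expression table: Slc4a1, Slc26a4, Slc4a9, Insrr, Foxi1, Car2, Car12, Car15, Rhbg and Rhcg. All 10 were found among the 21705 gene rows, and all 10 passed the filter on low values. RNA had been sequenced from the cortex of mice labelled Sav1-/- that received tamoxifen (4 libraries, abbreviated KS in the labels) and of mice labelled Sav1+/+ that received vehicle (4 libraries, abbreviated Ctrl), all on a mixed background strain. Genotype and treatment therefore changed together. No source used here gives the Cre driver, the age of the mice or the time since tamoxifen. Nor is it stated that each library came from a separate mouse, so a p-value reflects library-to-library spread that could be partly technical. Sav1 encodes salvador, a scaffold protein of the Hippo kinase pathway.

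Intercalated cells use a proton pump and chloride-bicarbonate exchangers to move acid and base in opposite directions across the epithelium. Type A cells secrete acid into the urine through an apical V-ATPase and return bicarbonate to the blood through AE1, the product of Slc4a1. Type B cells secrete bicarbonate through pendrin, the product of Slc26a4, and carry the exchanger AE4, the product of Slc4a9. Carbonic anhydrases supply the protons and bicarbonate, the Rh glycoproteins carry ammonia, and the forkhead transcription factor Foxi1 is required for intercalated cells to form.

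Values are deposited normalized levels, scaled to place the upper quartile of nonzero values at about 1000 in each library, and not divided by gene length. The libraries held about 15700000 to 20900000 reads in the Sav1-/- group and 20500000 to 25000000 in the Sav1+/+ group, and each of the 10 genes had between 378 and 13854 reads in every library. Log2 fold changes are Sav1-/- over Sav1+/+ on the log2(value + 1) scale with limma standard errors, and a gene is called at a limma adjusted p under 0.05 over all 13677 genes tested. Sav1 itself was at 983, 914, 982 and 714 in the Sav1-/- libraries and at 1504, 1743, 959 and 1193 in the Sav1+/+ libraries, which overlapped (log2 fold change -0.56 ± 0.19, limma adjusted p = 0.0220). That call was lost without Sav1+/+ replicate 1 (limma adjusted p = 0.0611) or 2 (0.0570) and with equal library totals (0.375). Xist, the RNA of the inactive X chromosome, was at 9280 to 16095 in the Sav1-/- libraries and at 0 to 0.989 in the Sav1+/+ libraries, while the Y-linked gene Ddx3y was at 0 in every Sav1-/- library and at 734 to 844 in the Sav1+/+ libraries. Sex-linked transcripts, genotype and treatment thus separate the same libraries and cannot be told apart in any difference below. The column headers of the groups also differ in form, and the same sample suffixes recur in both. The headers do not say whether the groups were handled together, and a difference in handling could not be told apart either. Sav1-/- replicate 4 stood farthest from its group, with a chi-square per degree of freedom of 62.6 to 114 against the other Sav1-/- libraries, where those differed among themselves by at most 28.1.

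The promoters of the genes with the largest rises (Foxi1 and Car15), of the gene with the largest fall (Car12) and of pendrin are shown first, since the members moved in opposite directions and Foxi1 is a DNA-binding factor. The RefSeq promoter table held entries for 5 of the 10 genes. Each line gives the 250 bases before the annotated start, 5′ to 3′ on the strand of the gene. Capitals mark the forkhead core TGTTTA or TGTTTG and the TATA motif TATAAA, searched on both strands.
Foxi1, GRCm38.p6, chr11:34208090-34208339, minus strand: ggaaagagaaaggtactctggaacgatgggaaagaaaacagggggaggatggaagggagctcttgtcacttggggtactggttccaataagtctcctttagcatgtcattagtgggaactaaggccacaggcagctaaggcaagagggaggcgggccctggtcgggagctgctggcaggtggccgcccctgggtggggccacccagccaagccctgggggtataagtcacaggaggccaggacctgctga
Car15, GRCm38.p6, chr16:17838187-17838436, minus strand: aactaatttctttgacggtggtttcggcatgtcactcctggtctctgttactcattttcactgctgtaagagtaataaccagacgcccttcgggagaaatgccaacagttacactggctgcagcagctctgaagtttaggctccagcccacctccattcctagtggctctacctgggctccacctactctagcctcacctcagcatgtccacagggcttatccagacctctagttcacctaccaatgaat
Car12, GRCm38.p6, chr9:66713436-66713685, plus strand: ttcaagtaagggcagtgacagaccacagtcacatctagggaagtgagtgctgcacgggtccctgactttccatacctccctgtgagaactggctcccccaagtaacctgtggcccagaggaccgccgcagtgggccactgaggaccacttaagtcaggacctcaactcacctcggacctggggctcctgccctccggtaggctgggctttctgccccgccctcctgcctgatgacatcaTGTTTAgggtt
Slc26a4, GRCm38.p6, chr12:31559985-31560234, minus strand: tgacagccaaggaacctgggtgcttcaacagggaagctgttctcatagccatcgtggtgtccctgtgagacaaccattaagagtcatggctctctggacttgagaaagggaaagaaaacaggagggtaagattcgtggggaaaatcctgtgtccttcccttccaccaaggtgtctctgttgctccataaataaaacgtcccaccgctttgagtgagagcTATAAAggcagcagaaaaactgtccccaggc
Of the 5 promoters, that of Car12 held a forkhead core, TGTTTA, at 11 to 6 bases before the start, and that of Slc26a4 held TATAAA at 31 to 26 bases before the start. Among 32851 promoters of the table, 25.3% held TGTTTA or TGTTTG and 12.4% held TATAAA in the same window. A match is a run of letters and not a measured binding site.

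The 10 genes did not move as a block. Foxi1, Car15, Rhcg and Slc4a9 were higher in the Sav1-/- libraries, Car12, Slc4a1 and Insrr were lower, and Slc26a4, Car2 and Rhbg were not called. In all, 7 of 10 were called, where 69.1% of all tested genes were, so the share of calls is near the background of this comparison. The 4 called higher stand against 43.9% of all tested genes and the 3 called lower against 25.2%. In 6 of the 10 the groups did not overlap, as in 65.2% of all tested genes. The median log2 fold change was 0.21 over the members and 0.23 over all tested genes. In bulk tissue, a change in the number of cells of a type and a change in RNA per cell cannot be told apart.

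**Figure D1:**
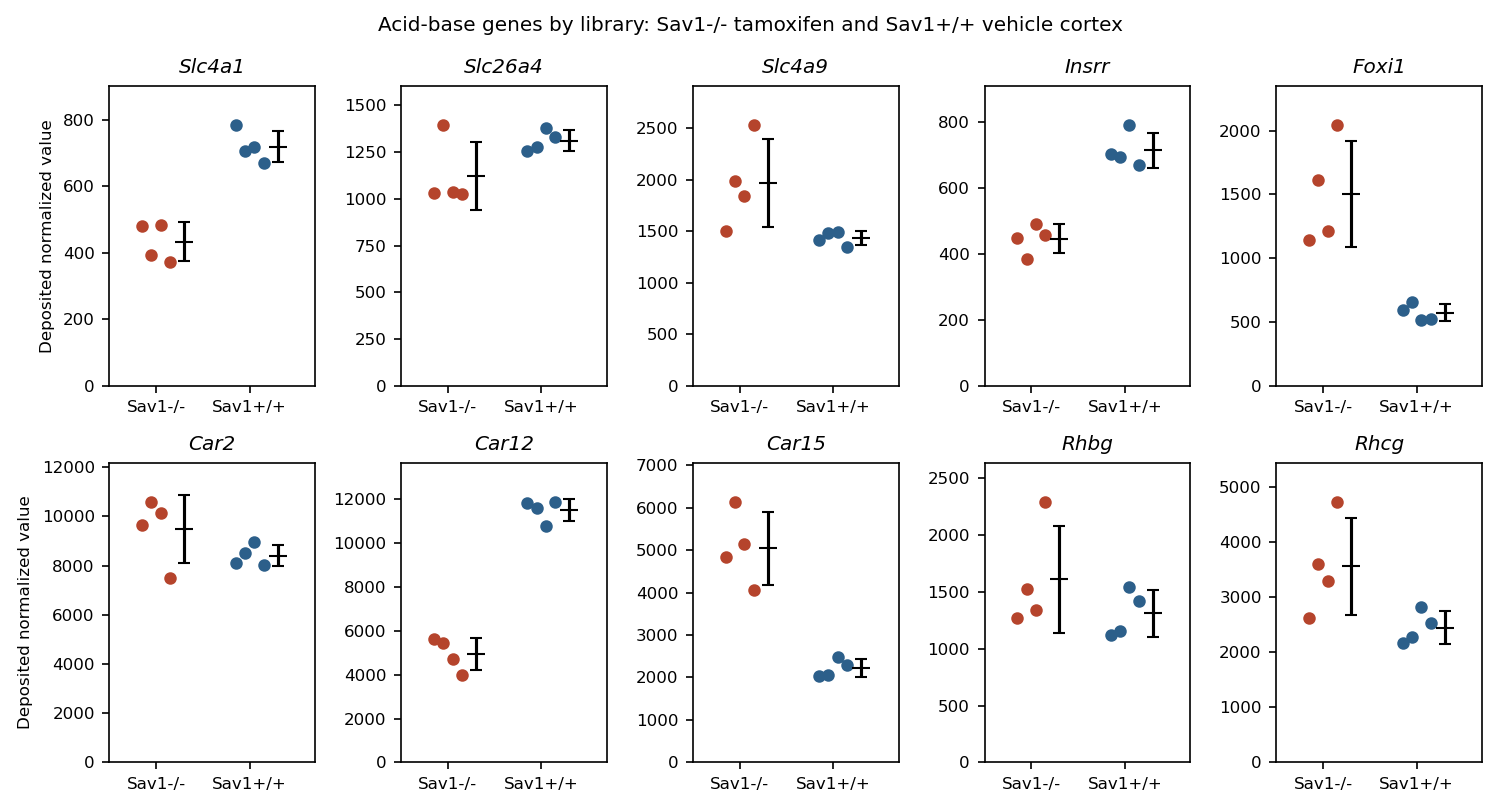
Deposited normalized values of the 10 acid-base genes in each library (points), with the mean and SD of each group (bars, n = 4 each) and the Sav1-/- group on the left. Foxi1 and Car15 lie wholly above the Sav1+/+ libraries, Car12, Slc4a1 and Insrr wholly below, and Car2, Rhbg, Rhcg and Slc26a4 overlap.

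Foxi1, the transcription factor of the lineage, had values of 1144, 1612, 1214 and 2042 in the Sav1-/- libraries and of 598, 658, 516 and 522 in the Sav1+/+ libraries. The lowest Sav1-/- library was well above the highest Sav1+/+ library. Group means were 1503 ± 414 and 573 ± 67.9 (SD, n = 4 each), a 2.56-fold rise (log2 fold change 1.36 ± 0.18, limma adjusted p = 0.000127), which lay at percentile 82.1 of all tested genes. The rise was called in all 16 alternative analyses, with log2 fold changes from 1.13 to 1.74. By exact permutation over the 70 assignments, 2-sided, p was 0.0286, the smallest it allows, as for the 5 other genes whose groups did not overlap.

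The type A exchanger moved the other way. Slc4a1 had values of 482, 395, 485 and 372 in the Sav1-/- libraries and of 784, 707, 718 and 671 in the Sav1+/+ libraries, with no overlap. Its means were 433 ± 58.5 and 720 ± 47.3 (SD, n = 4 each), a 1.67-fold fall (log2 fold change -0.74 ± 0.11, limma adjusted p = 0.000250). It fell in all 16 alternatives, from -0.96 to -0.36 on the log2 scale. Slc4a1 also encodes the band 3 protein of red cells. Of 9 erythroid markers in the table, 5 passed the filter, and 4 of these fell and 1 rose. Over all tested genes 25.2% fell and 43.9% rose. Hba-a2 (alpha globin) averaged 811 ± 198 and 3334 ± 1448, Hbb-b1 (beta globin) 174 ± 52.8 and 944 ± 536, and Alas2 (erythroid haem synthesis) 35.7 ± 11.6 and 193 ± 75.3 in the Sav1-/- and Sav1+/+ groups (SD, n = 4 each), while Epb4.2, which encodes a red cell membrane protein, was at 25.8 ± 5.73 and 9.03 ± 2.61, a rise whose call was lost under quantile normalization. The summed markers spanned 680 to 1240 in the Sav1-/- libraries and 2880 to 7446 in the Sav1+/+ libraries. Rhag and Car1, red cell genes, had at most 1 and 2 reads in a library. In Sav1+/+ replicates 1, 2, 3 and 4 the erythroid sums were 4196, 2880, 3561 and 7446, beside Slc4a1 values of 784, 707, 718 and 671. The part of red cell RNA in the fall was not tested.

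The genes of the type B cell did not share a direction. Slc26a4, which encodes pendrin, had values of 1032, 1394, 1037 and 1026 in the Sav1-/- libraries and of 1255, 1278, 1380 and 1331 in the Sav1+/+ libraries. Of the Sav1-/- libraries, 3 were below every Sav1+/+ library and replicate 2 was above all of them. Means were 1122 ± 181 and 1311 ± 55.8 (SD, n = 4 each), and the log2 fold change of -0.24 (95% interval from -0.48 to 0.01) was not called (limma adjusted p = 0.0757). Without Sav1-/- replicate 2 it was -0.34 and called lower (limma adjusted p = 0.00402). It was also called lower after median-of-ratios rescaling (-0.46, limma adjusted p = 0.00369), and it turned to 0.15, not called, with equal library totals.

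Slc4a9, which encodes AE4, had values of 1503, 1988, 1843 and 2530 in the Sav1-/- libraries and of 1419, 1484, 1489 and 1346 in the Sav1+/+ libraries. The groups were separated by a narrow gap, between Sav1-/- replicate 1 and Sav1+/+ replicate 3. Means were 1966 ± 427 and 1435 ± 66.8 (SD, n = 4 each), a 1.35-fold rise (log2 fold change 0.43 ± 0.14, limma adjusted p = 0.0204). The call was lost without Sav1-/- replicate 2 (limma adjusted p = 0.0503), without Sav1+/+ replicate 4 (0.0542) and after median-of-ratios rescaling (0.221), with the direction kept. Insrr, the insulin receptor-related receptor that senses alkaline extracellular pH, had values of 450, 386, 491 and 458 in the Sav1-/- libraries and of 704, 695, 791 and 670 in the Sav1+/+ libraries. Every Sav1-/- value was below every Sav1+/+ value. Its means were 446 ± 44.0 and 715 ± 52.8 (SD, n = 4 each), a 1.60-fold fall (log2 fold change -0.68 ± 0.10, limma adjusted p = 0.000201), called in all 16 alternatives (-0.91 to -0.30).

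The 3 carbonic anhydrases went 3 ways. Car2, the cytosolic carbonic anhydrase II, which the proximal tubule also expresses, had values of 9640, 10598, 10147 and 7479 in the Sav1-/- libraries and of 8120, 8518, 8971 and 8009 in the Sav1+/+ libraries. Of the Sav1-/- libraries, 3 lay above all Sav1+/+ libraries and replicate 4 below all of them. Means were 9466 ± 1381 and 8404 ± 436 (SD, n = 4 each). The log2 fold change of 0.16 (95% interval from -0.10 to 0.42) was not called (limma adjusted p = 0.247). It was called higher without Sav1-/- replicate 4 (0.27, limma adjusted p = 0.00600), under quantile normalization (0.83) and with library totals made equal (0.54), and was -0.06 after median-of-ratios rescaling.

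Car12, a carbonic anhydrase that faces the extracellular side of the membrane, had values of 5632, 5433, 4721 and 3983 in the Sav1-/- libraries and of 11809, 11605, 10772 and 11889 in the Sav1+/+ libraries. The Sav1-/- mean of 4942 ± 749 was 42.9% of the Sav1+/+ mean of 11519 ± 512 (SD, n = 4 each; log2 fold change -1.23 ± 0.12, limma adjusted p = 1.58e-05). It was the lowest fold change of the 10 genes, at percentile 7.23 of all tested genes. Car15, a membrane-anchored carbonic anhydrase that is active in mice, had values of 4828, 6141, 5132 and 4059 in the Sav1-/- libraries and of 2040, 2058, 2486 and 2292 in the Sav1+/+ libraries. Again no library crossed into the other group. Means were 5040 ± 862 and 2219 ± 212 (SD, n = 4 each), a 2.25-fold rise (log2 fold change 1.17 ± 0.13, limma adjusted p = 3.69e-05). Both calls held in all 16 alternatives, from -1.46 to -0.67 for Car12 and from 0.95 to 1.56 for Car15.

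Of the ammonia channels, Rhcg, which sits mainly in the apical membrane, had values of 2627, 3608, 3289 and 4740 in the Sav1-/- libraries and of 2175, 2274, 2830 and 2528 in the Sav1+/+ libraries. The groups overlapped at Sav1-/- replicate 1 and Sav1+/+ replicate 3. Means were 3566 ± 883 and 2452 ± 293 (SD, n = 4 each), a 1.43-fold rise that was called (log2 fold change 0.52 ± 0.17, limma adjusted p = 0.0205), although the 2-sided exact permutation p was 0.0571. The call was lost without Sav1-/- replicate 2 (limma adjusted p = 0.0501), without Sav1+/+ replicate 1 (0.0575) or 2 (0.0525) and after median-of-ratios rescaling (0.164).

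Rhbg, the basolateral channel, had values of 1274, 1528, 1346 and 2296 in the Sav1-/- libraries and of 1120, 1159, 1548 and 1421 in the Sav1+/+ libraries. Sav1-/- replicate 4 was high and the other libraries were intermixed. Means were 1611 ± 469 and 1312 ± 207 (SD, n = 4 each). The log2 fold change of 0.27 (95% interval from -0.16 to 0.69) was not called (limma adjusted p = 0.228), and it was 0.09 without that library. It was called higher with equal library totals (0.65, limma adjusted p = 0.0130). The Rh family gene Rhd had at most 1 read in a library.

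**Figure D2:**
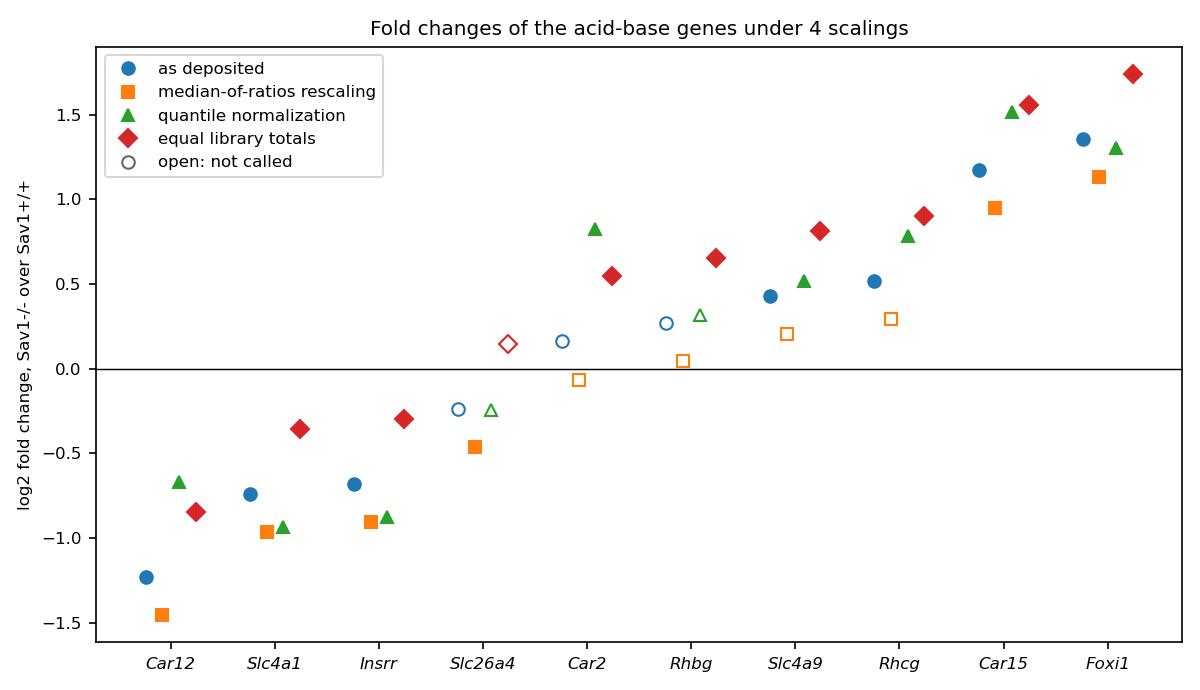
Log2 fold changes, Sav1-/- over Sav1+/+, of the 10 genes as deposited and after 3 other scalings. Filled symbols were called at a limma adjusted p under 0.05. Car12, Slc4a1 and Insrr stay below 0 and Foxi1 and Car15 above it, with calls, under all 4 scalings, while Slc26a4 and Car2 cross 0.

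The scaling sets where 0 lies. On the deposited values the median over all tested genes was a log2 fold change of 0.23, and it moved by -0.23 under median-of-ratios rescaling, by -0.26 under quantile normalization and by 0.39 with equal library totals, and 63.5%, 49.7%, 48.2% and 81.8% of all calls were higher under the 4 scalings in that order. Of the members, 4 were called higher and 3 lower as deposited. Those counts were 2 and 4 under median-of-ratios rescaling, 5 and 3 under quantile normalization, and 6 and 3 with equal library totals. Without Sav1-/- replicate 2 they were 2 and 4.

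Ratios of 2 genes within a library do not depend on rescaling by a library factor, and 3 were compared. The ratio of Slc26a4 to Slc4a1, the type B over the type A exchanger, was 2.14, 3.53, 2.14 and 2.76 in the Sav1-/- libraries and 1.60, 1.81, 1.92 and 1.98 in the Sav1+/+ libraries. The ratio was higher in every Sav1-/- library, by 1.42-fold on geometric means. Slc26a4 itself was not called, and Slc4a1 is a red cell gene too. The part of red cell RNA in this ratio was not tested. The ratio of Rhcg to Rhbg was 2.06, 2.36, 2.44 and 2.06 in the Sav1-/- libraries and 1.94, 1.96, 1.83 and 1.78 in the Sav1+/+ libraries, 1.19-fold higher without overlap. The ratio of Car12 to Car2 was 0.584, 0.513, 0.465 and 0.533 in the Sav1-/- libraries and 1.45, 1.36, 1.20 and 1.48 in the Sav1+/+ libraries, 2.63-fold lower. Each of the 3 had a 2-sided exact permutation p of 0.0286, the smallest possible, and the same value after Benjamini-Hochberg adjustment over the 3. Without 1 Sav1+/+ library, whichever it was, the adjusted exact permutation p of Slc26a4 to Slc4a1 was 0.0857. That of the other 2 ratios was 0.0857 without Sav1+/+ replicate 3 or 4, and with pairing by replicate number all 3 were at 0.125, the smallest that 4 pairs allow.

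**Figure D3:**
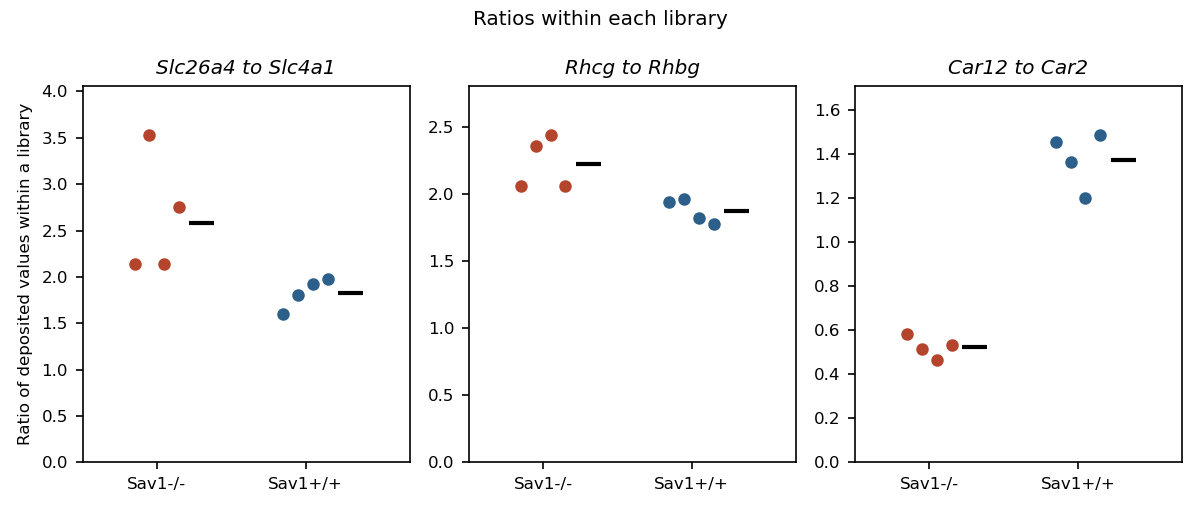
Ratios of deposited values within each library for 3 gene pairs (points), with geometric means (bars) and the Sav1-/- group on the left. Slc26a4 to Slc4a1 and Rhcg to Rhbg were higher in all Sav1-/- libraries and Car12 to Car2 was lower, from 0.465 to 0.584 against 1.20 to 1.48.

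Levels can be set side by side between genes once divided by length, taken here from the transcript with the longest coding sequence. In the Sav1-/- group Car2 led with 5294 ± 772 per kilobase, followed by Car15 (3928 ± 672), Rhcg (1706 ± 422), Car12 (1330 ± 202), Rhbg (832 ± 242), Foxi1 (638 ± 176), Slc4a9 (624 ± 136), Slc26a4 (365 ± 58.9), Slc4a1 (95.4 ± 12.9) and Insrr (87.5 ± 8.62). Neighbours in this order overlapped across libraries except Car15 and Rhcg, Slc4a9 and Slc26a4, and Slc26a4 and Slc4a1. In the Sav1+/+ group Car2 led with 4700 ± 244 per kilobase, followed by Car12 (3100 ± 138), Car15 (1730 ± 165), Rhcg (1173 ± 140), Rhbg (677 ± 107), Slc4a9 (455 ± 21.2), Slc26a4 (426 ± 18.1), Foxi1 (243 ± 28.8), Slc4a1 (158 ± 10.4) and Insrr (140 ± 10.4). Here the overlapping neighbours were Slc4a9 with Slc26a4 and Slc4a1 with Insrr. Car12 thus ranked 4 in the Sav1-/- group and 2 in the Sav1+/+ group, and Foxi1 6 and 8. With the length of all exons of a gene, Slc4a9 ranked 8 in both groups and Car12 5 in the Sav1-/- group, and Car2 remained first and Insrr last.

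Within the Sav1-/- group, 4 genes shared one order of libraries. Foxi1, Slc4a9, Rhbg and Rhcg were each highest in replicate 4, then in replicates 2, 3 and 1. Slc4a1, Slc26a4, Car2, Car12 and Car15 were lowest in replicate 4. The summed principal cell markers had the first order too, with 51669 in replicate 4, 43553 in replicate 2, 32985 in replicate 3 and 29445 in replicate 1, and the summed proximal tubule markers were lowest in replicate 4 (33435, against 53993 to 83006 in the others). The summed inner medulla markers were also lowest in replicate 4 (9560, against 9968 to 12746 in the others). The part of cell makeup in these orders was not tested. Over all 8 libraries the most alike pair of members was Slc4a9 and Rhcg, with a root mean square difference of 0.12 between centred log2 profiles, followed by Slc4a1 and Insrr (0.13), and the least alike was Foxi1 and Car12 (1.34). The non-member genes closest to Foxi1 were Dnmbp (0.08), Cuedc1 (0.10) and Map3k14 (0.10). Those closest to Slc4a1 were Rab3ip (0.05), Setd3 (0.05) and Lmtk2 (0.06), and those closest to Slc26a4 were Lrig3 (0.07), Lax1 (0.07) and Nme7 (0.08).

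**Figure D4:**
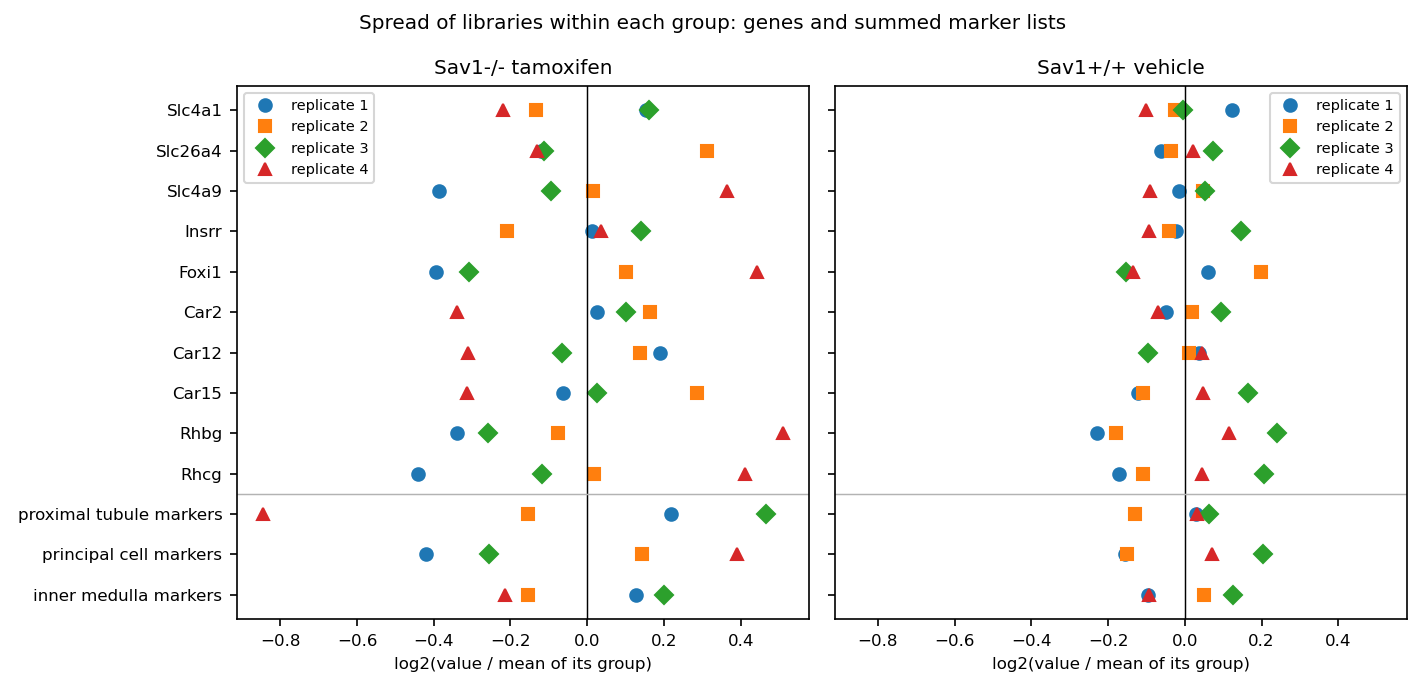
Log2 of each library's value over the mean of its own group, for the 10 genes and for the summed proximal tubule, principal cell and inner medulla markers. In the Sav1-/- group (left) replicate 4 is highest for Foxi1, Slc4a9, Rhbg, Rhcg and the principal cell markers. It is lowest for Car2, Car12, Car15, Slc4a1, Slc26a4, the proximal tubule markers and the inner medulla markers.

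Of 22 other intercalated cell genes listed beside the members, 20 passed the filter, 15 rose and 1 fell, where 43.9% of all tested genes rose and 25.2% fell. Their median log2 fold change was 0.81, against 0.23 over all tested genes. The list was chosen with earlier results of these data known, so these counts are not an independent test. The number that rose was 12 under median-of-ratios rescaling, 13 under quantile normalization and 17 with equal library totals, and 16 without the Sav1-/- library that stands apart, replicate 4. P2ry14, a receptor for UDP-glucose, was at 295 ± 29.6 and 26.4 ± 2.04 (SD, n = 4 each; log2 fold change 3.43), and Slc4a8, a sodium-driven chloride-bicarbonate exchanger of type B cells, at 393 ± 70.8 and 95.5 ± 3.56 (2.01). Aqp6, a water channel of type A cells, was at 3290 ± 677 and 879 ± 172 (1.90), and Gpr116, an adhesion receptor of type A cells, at 1880 ± 277 and 892 ± 31.7 (1.06). These 4 had limma adjusted p from 3.49e-07 to 2.29e-05.

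The V-ATPase, the proton pump, has subunit isoforms enriched in intercalated cells and counterparts found in most cells. Of the 5 kidney isoforms, all of them among the other intercalated cell genes counted above, 3 rose and 1 fell. Of the 5 ubiquitous counterparts 4 fell and 0 rose. Both counts stand against the same 43.9% higher and 25.2% lower over all tested genes. With equal library totals 1 counterpart rose and 2 fell. Atp6v1b1 averaged 2916 ± 445 and 1939 ± 199, Atp6v0d2 1523 ± 204 and 860 ± 75.1, and Atp6v1g3 2060 ± 569 and 1152 ± 76.8 in the Sav1-/- and Sav1+/+ groups (SD, n = 4 each), with log2 fold changes of 0.58, 0.82 and 0.80 (limma adjusted p = 0.00174, 0.000121 and 0.00214). Their counterparts Atp6v1b2, Atp6v0d1 and Atp6v1g1 had log2 fold changes of -1.11, -0.69 and -0.58 (limma adjusted p = 1.37e-05, 1.95e-05 and 0.000383), and Atp6v1c1 one of -0.64. The call of Atp6v1g1 and that of Atp6v1c1 were lost with equal library totals. Atp6v0a4, whose loss causes distal renal tubular acidosis in humans and which the proximal tubule expresses too, was at 6289 ± 1010 and 7642 ± 216, a log2 fold change of -0.30 (limma adjusted p = 0.0484). That call was lost in 11 of 16 alternatives, and the sign turned under quantile normalization (0.28) and once library totals were made equal (0.088). Atp6v1c2 (-0.01) and Atp6v0a1 (-0.10) were not called, and with equal library totals both were called higher (0.37 and 0.28). Atp6v0a1 was called lower under median-of-ratios rescaling (-0.32, limma adjusted p = 0.0247) and without Sav1-/- replicate 4 (-0.19, limma adjusted p = 0.0190).

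**Figure D5:**
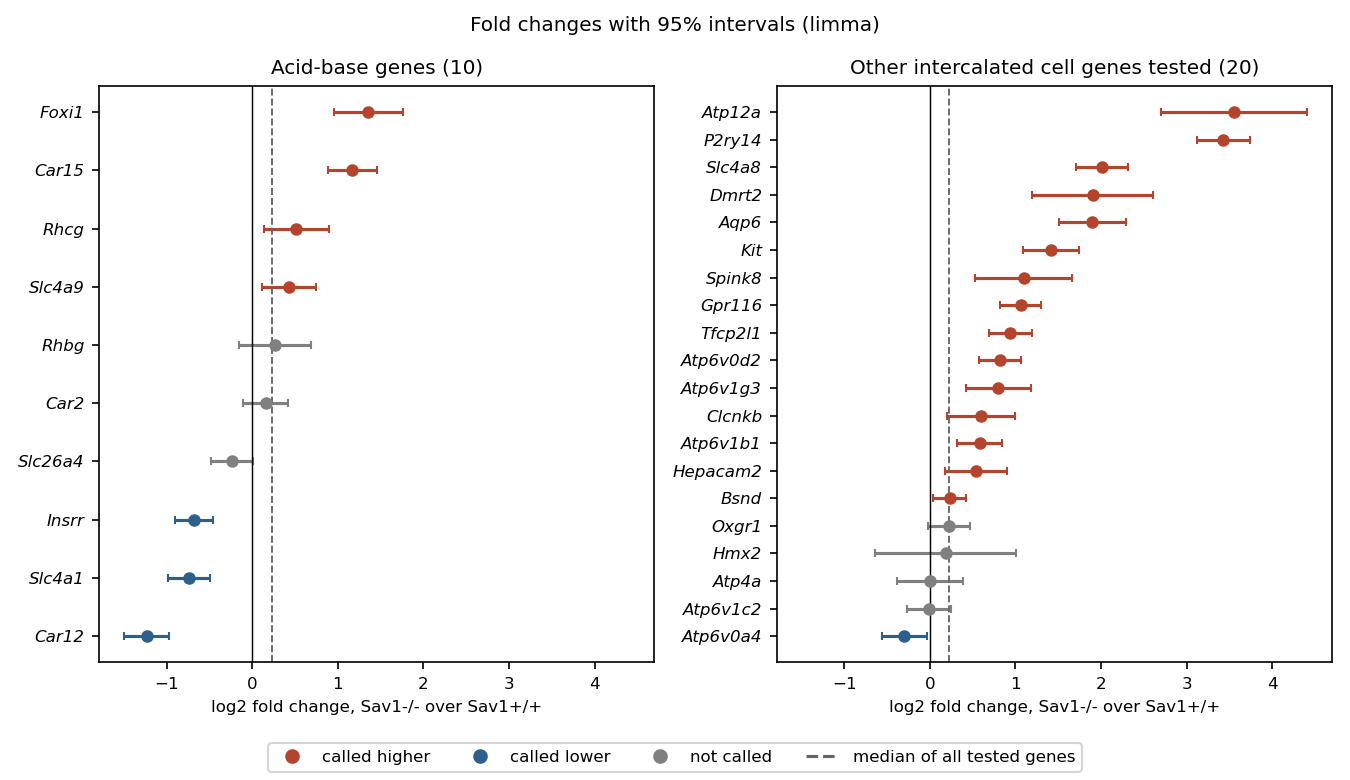
Log2 fold changes, Sav1-/- over Sav1+/+, with 95% limma intervals for the 10 genes (left) and the 20 other intercalated cell genes tested (right). The dashed line is the median of all tested genes, 0.23. Of the genes on the right 15 were called higher and 1, Atp6v0a4, lower.

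Relatives of the members in the same gene families are given here without the members. Of 9 other carbonic anhydrases tested, 2 rose and 5 fell, so that 7 of 9 were called where 69.1% of all tested genes were. Car4 and Car14, membrane carbonic anhydrases of the proximal tubule, averaged 1233 ± 441 and 268 ± 160 in the Sav1-/- group, against 4911 ± 800 and 2773 ± 601 in the Sav1+/+ group (log2 fold changes -2.08 and -3.79, limma adjusted p = 0.000167 and 0.000779). Car3 and Car9 had log2 fold changes of -2.18 and -3.16, and the cytosolic Car13 and the Car-related Car11 had 1.39 and 2.29. In the SLC4 family, 5 of 7 other genes tested rose and 1 fell, where 43.9% of all tested genes rose and 25.2% fell. Slc4a8, given above, is among those that rose. Slc4a4, the sodium bicarbonate cotransporter of the proximal tubule, was at 8840 ± 3026 and 21932 ± 2000.2 in the Sav1-/- and Sav1+/+ groups (SD, n = 4 each; -1.39, a call lost after quantile normalization), while Slc4a2 (AE2) was at 1621 ± 287 and 970 ± 80.3 (0.73), Slc4a3 (AE3) at 647 ± 277 and 189 ± 19.6 (1.69) and Slc4a11 at 316 ± 73.2 and 9.68 ± 4.13 (4.95). In the SLC26 family the 4 other genes tested fell, against 25.2% of all tested genes, among them the anion exchangers Slc26a1 (-2.31) and Slc26a6 (-1.30). Slc26a7, 1 of the other intercalated cell genes listed above, did not pass the filter and was not tested. It averaged 14.4 ± 4.68 and 2.92 ± 2.40 in the Sav1-/- and Sav1+/+ groups (SD, n = 4 each), with at most 21 reads in a library.

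Genes by which the proximal tubule makes ammonia and reclaims bicarbonate were lower. Of 10 listed, 7 fell and 0 rose, where 25.2% of all tested genes fell, with a median log2 fold change of -1.43. The glutamate transporter Slc1a1 fell by 1.68 on the log2 scale, and Car4, Car14 and Slc4a4 are given above. After quantile normalization 4 fell and 1 rose, and without Sav1-/- replicate 4, 7 fell and 2 rose.

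Markers of other cell types also differed between the groups. Over all tested genes 43.9% rose and 25.2% fell, the shares against which the counts here stand. Of 8 proximal tubule markers 7 fell, and their sum spanned 33435 to 83006 in the Sav1-/- libraries and 287407 to 328059 in the Sav1+/+ libraries. Of 11 principal cell markers, which share the collecting duct with intercalated cells, 10 rose and 0 fell, and the sum spanned 29445 to 51669 and 13598 to 17428. Scnn1g, Elf5 and Gata3 had log2 fold changes of 1.74, 3.90 and 1.93. Of 6 inner medulla markers 4 rose and 1 fell, with sums of 9560 to 12746 and 7484 to 8723. Most of each sum was Slc6a6, which was not called, at 7250 ± 1665 and 7057 ± 521 in the Sav1-/- and Sav1+/+ groups (SD, n = 4 each). The marker that fell was Akr1b3, at 119 ± 26.1 and 353 ± 36.3 (log2 fold change -1.58, limma adjusted p = 3.60e-05). The urea transporter gene Slc14a2 was at 64.0, 228, 51.4 and 233 in the Sav1-/- libraries and had 1 read in the Sav1+/+ libraries together. Macrophage and osteoclast-type markers, of which 9 of 11 rose and 1 fell, summed to 7816 to 10141 and 2932 to 3647. The 1 that fell was Acp5, at 1065 ± 156 and 1878 ± 193 in the Sav1-/- and Sav1+/+ groups (SD, n = 4 each). Its log2 fold change was -0.82 (limma adjusted p = 0.000233). Gpnmb was not called, and Ctsk rose (2.44). Cells of these types express Atp6v0d2 and Car2 as well. The part of the tissue's makeup and dissection in the differences above was not tested.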

How the data were processed

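The deposited table gives 1 value per gene and library in the authors' normalized unit, here called a signal. The build mm9 and the tools RSEM, SAMtools and Picard 1.64 are listed in the submitters' processing notes, and per the labels' protocols the libraries were stranded mRNA preparations. No source used here gives the aligner, annotation or strand setting. The scaling was read from the values. In each library 92.7% to 93.3% of values below 400 were whole multiples of 1 read's value (tolerance 0.02 read), too few for a count model, and reads were derived from that step. No interval was computed for reads or depth.

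Genes with a mean of at least 10 were tested on log2(value + 1) with limma 3.58.1 in R 4.3.3 (intensity trend, 6 residual degrees of freedom, Benjamini-Hochberg over 13677 genes). On simulated data, with 200 of 13677 genes changed and independent normal noise, the fit recovered 71% of 2-fold and 91% of 4-fold changes. It made 10 false calls among 172. The simulation held no shift in scaling, and 69.1% of genes were called here, so these rates need not hold for this comparison. All members were named. Of other lists, gene families and up to 4 called genes with the smallest p per direction were named, and profiles were compared by root mean square difference. The members and lists were chosen with earlier results of these data known. Hba-a2, Hbb-b1, Alas2, Epb4.2, Rhag, Slc14a2, Slc6a6, Ctsk, Gpnmb and Ddx3y were singled out for cell makeup and sex. Alternatives were other pseudocounts (0.5 and 10), no filter, 3 scalings, no trend, a replicate block and leaving out each library. Those for genes outside the 10 were added after seeing the data. Lengths came from GENCODE M21 and promoters from RefSeq, both on GRCm38, and no coordinate was combined with mm9.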

Additional observations from a re-analysis of the deposited data

Results flagged for a closer look

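Sav1-/- replicate 2 stood apart from the other Sav1-/- libraries for Slc26a4, at 1394 against 1026 to 1037, a gap of 0.968 of the group's range, past Dixon's 95% critical value for 4 samples. It was the 1 group past that limit of 26 looked at (10 genes and 3 ratios in both groups), and chance flags about 1 in 20.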

How the results depend on the processing

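Each of the 10 genes was refitted under 16 alternatives, and 145 of the 160 values kept their direction and their side of the threshold. Foxi1, Car15, Car12, Slc4a1 and Insrr did so in all of them. Slc26a4 turned to 0.15 with equal library totals and Car2 to -0.064 after median-of-ratios rescaling. The number of members called higher was 2 after median-of-ratios rescaling and 2 to 5 when a library was left out, and the number lower 3 to 4. Of other intercalated cell genes, 14 to 16 rose and 0 to 1 fell when a library was left out, and 0 fell without the filter, after quantile normalization, with equal library totals, without the trend and with the replicate block. Among all genes, 1946 fell with equal library totals and 3148 to 3632 when a library was left out, and 5471 to 6296 rose. Atp6v0a4 turned to 0.28 after quantile normalization and to 0.088 with equal library totals. Atp6v1c2 turned to 0.37 with equal library totals and spanned -0.092 to 0.049 when a library was left out (0.049, 0.045 and 0.047 without Sav1-/- replicate 1, Sav1-/- replicate 3 and Sav1+/+ replicate 3), and Atp6v0a1 to 0.28 with equal library totals. The cause was not tested.

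The replicate numbers were not taken to pair the libraries. Same-numbered libraries had correlations of their deviations from -0.17 to 0.14 across genes, and differently numbered ones from -0.22 to 0.24. These values cannot settle whether the libraries were paired. With the replicate block, 5927 genes rose and 3391 fell, 4 members were higher and 3 lower, and 14 other intercalated cell genes rose. For the ratios a replicate block gave differences of 0.50, 0.25 and -1.39 on the log2 scale (Slc26a4 to Slc4a1, Rhcg to Rhbg, Car12 to Car2) with an adjusted exact permutation p of 0.125, the smallest that 4 pairs allow. Without 1 library the differences spanned 0.35 to 0.59, 0.20 to 0.28 and -1.46 to -1.34, with adjusted p from 0.0286 to 0.0857, and the first was at 0.0857 without any 1 of the Sav1+/+ libraries.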
